A study of Mus musculus with 8 samples.

Results

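The chaperone genes described here are the rows of the count table whose symbols begin with Hspa, Hspb, Hspd1, Hspe1, Hsph1, Hsp90, Dnaj, Cct and a digit, or Bag and a digit. They number 73 of the 11354 genes in the table: 11 Hspa genes, Hsph1, 3 Hsp90 genes, 5 Hspb symbols, Hspd1 and Hspe1, 7 Cct genes, 4 Dnaja, 10 Dnajb and 24 Dnajc genes, and 6 Bag genes. They were picked by symbol alone, though with earlier results of these data known. The deposited table holds no gene of low level, and the filter on low counts kept all of its genes, the 73 included. Of the 5 Hspb symbols, 3 match by their letters alone: Hspbp1 is a nucleotide exchange factor of Hsp70, Hspbap1 is named as a partner of a small heat shock protein, and Hspb11 is a subunit of the intraflagellar transport machinery. The other 2, Hspb1 and Hspb6, are small heat shock proteins.

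The libraries come from CD4 T cells that were transferred into RAG-/- mice, hosts without lymphocytes that need gene rearrangement, on a background labelled Black6. The transferred cells were Nlrp6-/- CD4 T cells in 4 libraries (KO 1, KO 2, KO 4 and KO 5, after the host number) and Wild Type CD4 T cells in 4 libraries (WT 1, WT 2, WT 4 and WT 5). The age and sex of the mice, the targeted Nlrp6 allele and the duration of the transfer are not given in the labels, and the tissue is spleen in some fields and colonic lamina propria in others. The labels do not say whether a host number stands for the same mouse under both genotypes, and p-values therefore reflect library-to-library spread alone, part of which may be technical.

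Nlrp6, the gene named in the labels, went against them, with 487, 329, 477 and 648 counts in KO 1, KO 2, KO 4 and KO 5, against 5, 3, 3 and 8 counts in WT 1, WT 2, WT 4 and WT 5. For that reason all directions below are those of the libraries labelled KO relative to the libraries labelled WT, not of a genotype. Totals ran from 35198192 to 39325381 counts in libraries labelled KO and from 38003997 to 40310721 in libraries labelled WT. The libraries labelled KO also held more transcripts of myeloid cells. Of 20 myeloid markers 18 were called higher and 0 lower, beside 6.20% and 3.84% of all genes. The 20 had a summed level in CPM, counts scaled to library size, of 328, 559, 1004 and 731 for KO 1, KO 2, KO 4 and KO 5, against 65.5 to 107 CPM in libraries labelled WT. The table holds only genes with at least 0.987 CPM in 4 libraries. Clec4a3, Fcgr1 and Cebpa, and Trem1 and Clec4d of the neutrophil list below, were under that level in every library labelled WT. These genes are in the table through the libraries labelled KO and could hardly be called lower. Of 11 listed genes of dendritic cells and MHC class II, 10 were measured, with 7 called higher and 0 lower. The 10 summed to 481 to 1360 CPM under KO and 76.8 to 132 CPM under WT. The 7 were Cd74, H2-Aa, H2-Ab1, H2-Eb1, H2-DMb1, Ciita and Batf3. Zbtb46, Itgax and H2-DMa were not called, and Flt3 was not measured. Of 11 listed neutrophil genes, 8 were measured, without Cxcr2, Retnlg and Ly6g, and 7 were called higher and 0 lower. The 8 summed to 148 to 445 CPM under KO and 30.9 to 44.7 CPM under WT. Il1b alone averaged 172 CPM of a mean sum of 274 CPM under KO. The labelled cell type showed in its markers, with Cd4 at a mean of 1222 CPM under KO and 1446 CPM under WT. Of 11 T cell identity genes measured of 14 listed, 0 were called higher and 2, Cd247 and Zap70, lower (summed 7294 to 7870 CPM under KO and 7741 to 8900 CPM under WT). Of 5 epithelial genes measured of 7 listed, 0 were called (34.2 to 38.9 CPM under KO and 29.2 to 44.2 CPM under WT). Of the 7 listed B and plasma cell genes 0 were measured here. The part of these other cells in the chaperone values was not tested, and fewer cells of a type cannot be told apart from less RNA per cell.

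Molecular chaperones bind unfolded proteins and help them reach or keep their fold. Hsp70 proteins (Hspa genes) work in cycles of ATP hydrolysis that J-domain proteins (Dnaj genes) start and that nucleotide exchange factors, among them Bag and Hsp110 proteins, complete. Hsp90 receives clients from Hsp70 and matures kinases and steroid receptors, Hsp60 with Hsp10 folds proteins inside mitochondria, and the Cct ring folds actin and tubulin in the cytosol. The transcription factor HSF1 induces many of these genes when proteins misfold, and it binds inverted repeats of the letters GAA and TTC. Activated T cells need chaperones as they grow and divide, and Hsp90 clients include the T cell kinase Lck.

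Both called members, Bag3 and Dnajb4, are known heat shock genes, and their start regions are shown with those of 2 other heat shock genes whose levels did not differ by the test. Sequences are from RefSeq (GRCm38.p6), 5′ to 3′ on the gene's strand, and hold the 250 bases before an annotated start. Capitals mark matches to GAANNTTC or TTCNNGAA, each of which reads the same on both strands. For Bag3 a stretch of 30 bases after the start is added, because its match lies there, with its first base at position 43 counted from the start as 1.
Bag3 upstream, chr7:128523333-128523582, plus strand: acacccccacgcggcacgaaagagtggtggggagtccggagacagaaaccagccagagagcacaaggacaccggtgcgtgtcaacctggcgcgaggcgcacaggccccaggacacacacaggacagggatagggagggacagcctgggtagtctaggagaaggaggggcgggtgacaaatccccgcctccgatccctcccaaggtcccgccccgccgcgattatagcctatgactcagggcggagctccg
Bag3 site after the start, chr7:128523603-128523632, plus strand: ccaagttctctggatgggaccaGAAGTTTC
Dnajb4 upstream of the outer start, chr3:152210084-152210333, minus strand: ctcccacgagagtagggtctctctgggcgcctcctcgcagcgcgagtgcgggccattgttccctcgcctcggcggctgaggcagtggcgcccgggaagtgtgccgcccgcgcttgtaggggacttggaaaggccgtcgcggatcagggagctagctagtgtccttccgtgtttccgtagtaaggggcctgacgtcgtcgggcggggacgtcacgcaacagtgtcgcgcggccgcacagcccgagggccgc
Dnajb4 upstream of the inner start, chr3:152193846-152194095, minus strand: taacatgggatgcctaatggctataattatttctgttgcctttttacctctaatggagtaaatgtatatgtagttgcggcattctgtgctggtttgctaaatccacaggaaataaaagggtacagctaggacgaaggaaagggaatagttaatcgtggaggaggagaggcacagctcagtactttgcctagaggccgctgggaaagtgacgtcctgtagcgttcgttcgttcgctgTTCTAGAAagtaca
Hspa1b upstream, chr17:34959239-34959488, minus strand: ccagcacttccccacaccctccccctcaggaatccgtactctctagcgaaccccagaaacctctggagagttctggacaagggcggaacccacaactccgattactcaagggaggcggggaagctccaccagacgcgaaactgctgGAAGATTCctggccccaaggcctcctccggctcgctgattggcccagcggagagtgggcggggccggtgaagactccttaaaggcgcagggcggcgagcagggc
Hspe1 upstream, chr1:55087898-55088147, plus strand: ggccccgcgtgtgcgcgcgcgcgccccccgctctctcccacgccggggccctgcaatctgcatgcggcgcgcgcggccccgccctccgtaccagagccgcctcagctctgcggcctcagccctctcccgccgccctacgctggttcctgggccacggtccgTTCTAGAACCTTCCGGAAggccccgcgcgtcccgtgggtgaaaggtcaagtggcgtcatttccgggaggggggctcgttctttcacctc

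Hspa1b has its match 104 bases before the start, and Hspe1 has 3 overlapping matches, the first of them 89 bases before the start. Dnajb4 has 2 annotated starts, of which the inner has a match 14 bases before it. In windows of 250 bases before to 50 bases after each start, 4946 of all 32851 RefSeq promoters (15.1%) held a match, and 4587 of 27025 genes (17.0%) had it in at least 1 window. RefSeq windows were found for 60 of the 73 chaperone genes, and 17 of these 60 genes (28.3%) had a match in at least 1 window. For genes of the whole count table it was 1261 of 9075 (13.9%). Of the 15 chaperone genes listed as heat-inducible, 12 had a window and 9 of those had a match. A match describes letters in a window and is no evidence of binding.

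Across the family the libraries of the labels were close. edgeR's quasi-likelihood test called 2 of 73 members (2.74%) higher and 0 lower in the libraries labelled KO, at a Benjamini-Hochberg adjusted p below 0.05 over all genes. Of all 11354 genes, 704 were called higher (6.20%) and 436 lower (3.84%), 1140 in all. DESeq2 called 3 members, against 13.9% of all genes, and limma-voom called 2, against 9.72% of all genes. At an unadjusted p below 0.05, edgeR picked 8 members (11%), 6 higher and 2 lower, against 23.5% of all genes. The median log2 fold change over the members was 0.034, beside -0.0026 over all genes, and the median size of the change, without its sign, was 0.067 for members, beside 0.089 for all genes. Of the 73 members, 50 had a log2 fold change above 0, beside 5569 of all 11354 genes.

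The 95% interval of the log2 fold change, each taken alone, lay within 0.5 of 0 in both directions for 66 members. Over all 11354 genes it did so for 8569. This count reflects the size of a change as well as the precision of its estimate. The 7 members outside the range were Bag3, Hspb1, Hsph1, Dnajb9, Dnajb2, Dnajb13 and Dnajc6. Bag3 was outside through the size of its change, with an interval from 0.42 to 0.84. For Dnajc6, which encodes the clathrin uncoating factor auxilin and was the member of lowest level per length, the interval ran from -1.20 to 0.63. The summed level of all 73 members was 27613, 28053, 32846 and 32709 CPM in KO 1, KO 2, KO 4 and KO 5, against 26381, 29658, 27713 and 32425 CPM in WT 1, WT 2, WT 4 and WT 5. The sums of the labels overlapped, and the lowest and highest libraries within each label differed by more than the label means.

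**Figure D1:**
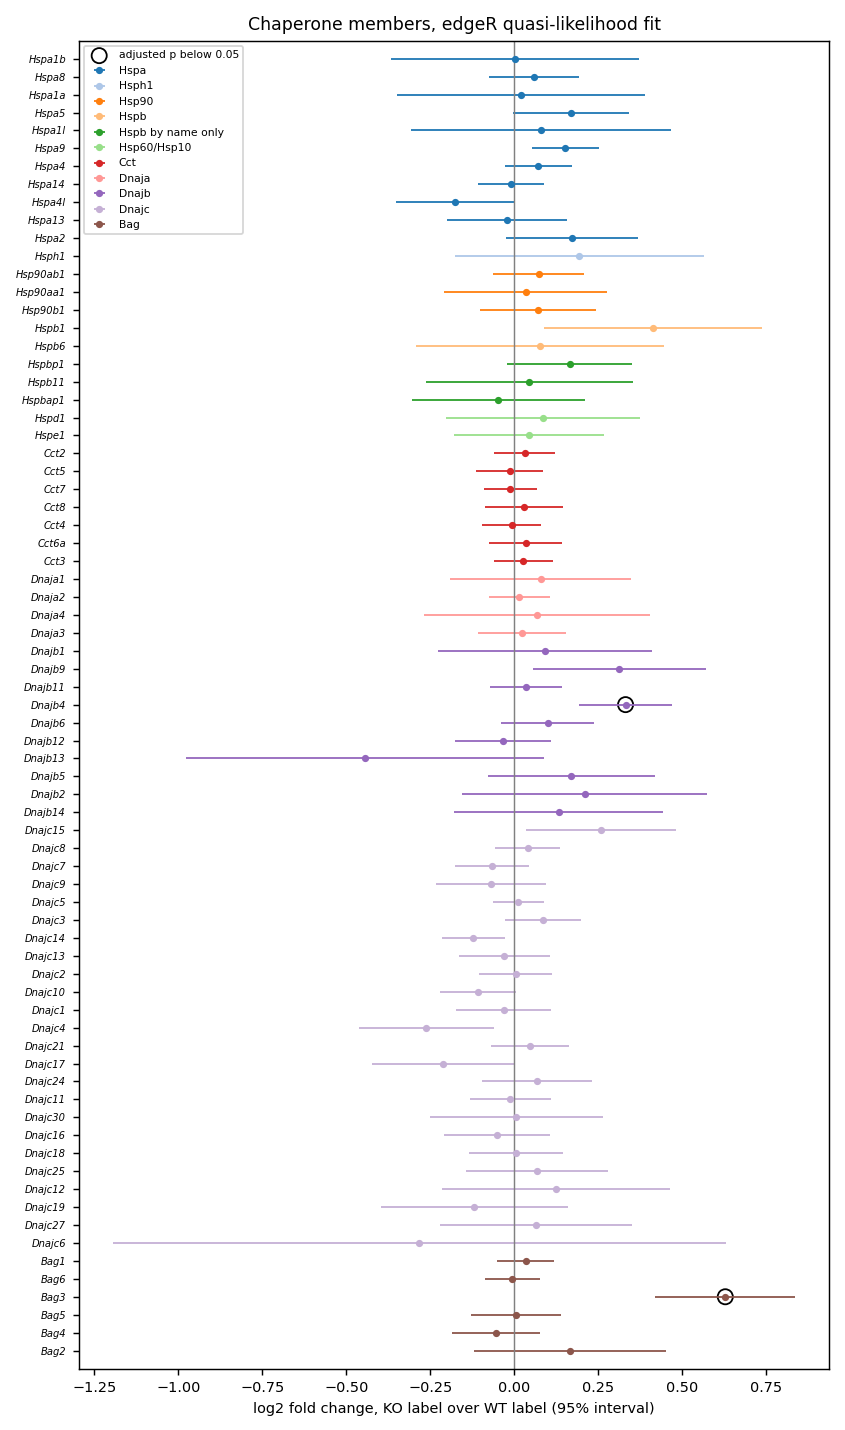
Log2 fold change of each of the 73 chaperone genes, libraries labelled KO over libraries labelled WT, with its 95% interval (n = 4 each), ordered by family and level per length; ringed points have an adjusted p below 0.05. Bag3 (0.63) and Dnajb4 (0.33) are ringed, and the 7 Cct genes lie between -0.014 and 0.034.

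Bag3 encodes a co-chaperone that links Hsp70 and small heat shock proteins to selective autophagy, and it lies on chromosome 7 from 128523583 to 128546981. Its level was 78.7, 64.2, 72.3 and 76.0 CPM in KO 1, KO 2, KO 4 and KO 5, against 44.1, 45.8, 42.8 and 55.7 CPM in WT 1, WT 2, WT 4 and WT 5. Every library labelled KO was above every library labelled WT, and WT 5 was the highest of the libraries labelled WT. The mean was 72.8 ± 6.30 CPM under KO and 47.1 ± 5.84 CPM under WT (SD, n = 4 each), which is 0.63 ± 0.093 on the log2 scale (SE, edgeR adjusted p = 0.00215). It was called in all 19 fits, the first one and 18 alternatives. These include the 8 that leave out 1 library (0.58 to 0.72). They also include KO 1 and KO 2 against all libraries labelled WT (0.60, edgeR adjusted p = 0.0189). That fit leaves out the 2 libraries with the highest myeloid sums. KO 1 and KO 2 still had myeloid sums of 328 and 559 CPM, against 65.5 to 107 CPM under WT. The part of myeloid cells in the value of Bag3 was not tested.

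Other genes around Bag3 on chromosome 7 also differed, a comparison added after its value was seen. Of 29 measured genes within 1 Mb of Bag3, 12 (41.4%) were called, 3 higher and 9 lower. Among the 52 members with at least 10 measured neighbours this share was the highest, with 20.0% the next and a median of 7.85%. Among the 12 was Rgs10, which encodes an RGS protein and ends 104077 bases before Bag3 starts, at 7.13 ± 0.864 CPM under KO and 58.9 ± 7.85 CPM under WT (SD, n = 4 each). Nlrp6 lies on the same chromosome, 12373921 bases beyond the end of Bag3. The part of this position in the value of Bag3 was not tested.

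Dnajb4 encodes a cytosolic J-domain partner of Hsp70, and it lies on chromosome 3 from 152181580 to 152210432. Its level was 85.7, 86.2, 93.0 and 86.1 CPM in KO 1, KO 2, KO 4 and KO 5, against 63.5, 76.9, 67.5 and 71.1 CPM in WT 1, WT 2, WT 4 and WT 5. The labels did not overlap, and KO 4 stood above the other 3 libraries of its label. The mean was 87.8 ± 3.5 CPM under KO and 69.7 ± 5.72 CPM under WT (SD, n = 4 each), which is 0.33 ± 0.061 on the log2 scale (SE, edgeR adjusted p = 0.00753). The call ended without KO 2 and KO 4 (0.29, adjusted p = 0.0563) and once the library code of the sample descriptions entered the model (0.30, adjusted p = 0.0557), and it held without each single library (0.28 to 0.38, highest adjusted p = 0.0247) and without KO 4 and KO 5 (0.30, adjusted p = 0.0481). Of the 7 measured genes within 1 Mb of Dnajb4, 0 were called.

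Besides these 2, the libraries of the labels did not overlap in CPM for Hspa9 and Hspb1, which were higher under KO, and for Dnajc14, which was lower. That makes 5 of 73 members (6.85%), against 16.0% of all genes. By direction it was 4 higher (5.48%, against 8.60% of all genes) and 1 lower (1.37%, against 7.37%). Hspa9, the Hsp70 of the mitochondrial matrix, was at 155, 153, 167 and 147 CPM in KO 1, KO 2, KO 4 and KO 5, against 136, 142, 139 and 143 CPM in WT 1, WT 2, WT 4 and WT 5 (0.15 ± 0.044, edgeR adjusted p = 0.0627). It passed with DESeq2 (adjusted p = 0.0197) and without KO 5 (edgeR adjusted p = 0.0405). Hspb1, the small heat shock protein Hsp27, was low at 3.0, 3.41, 2.52 and 3.38 CPM in libraries labelled KO and 2.20, 2.32, 2.23 and 2.51 CPM in libraries labelled WT (0.41 ± 0.14, edgeR adjusted p = 0.115). KO 4 and WT 5 differed by less than 0.02 CPM. Dnajc14, a J protein of the endoplasmic reticulum membrane, averaged 93.1 ± 3.67 CPM under KO and 101 ± 2.69 CPM under WT (-0.12 ± 0.042, edgeR adjusted p = 0.107), and it passed when total counts replaced the TMM factors (-0.14, adjusted p = 0.0411).

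**Figure D2:**
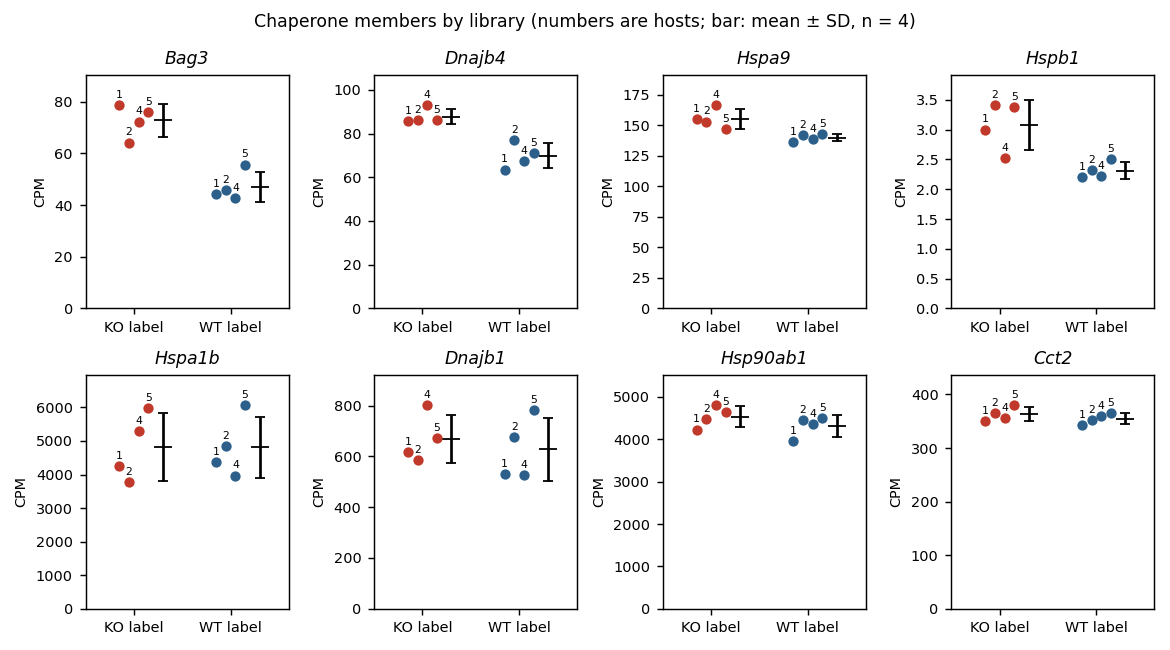
CPM of 8 chaperone genes in each library, with the libraries labelled KO on the left and those labelled WT on the right of each panel; numbers are hosts and bars give the mean and SD of 4 libraries. Bag3, Dnajb4, Hspa9 and Hspb1 do not overlap between the labels, whereas Hspa1b spans 3768 to 5986 CPM under KO and 3968 to 6061 CPM under WT.

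Among the 11 Hspa genes 0 were called in either direction, with a median log2 fold change of 0.059 and a range from -0.17 to 0.17. At an unadjusted p below 0.05, edgeR picked 1 of them, Hspa9. Per gene length the highest were Hspa1b at 1714 CPM per kb and Hspa8 at 1407 CPM per kb over all libraries. Hspa8, the constitutive Hsp70 of the cytosol, was at 4539 ± 295 CPM under KO and 4356 ± 194 CPM under WT (SD, n = 4 each), with a 95% interval of the log2 fold change from -0.074 to 0.19. WT 1, at 4065 CPM, was the lowest library.

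Hspa1b, an inducible Hsp70, was at 4243, 3768, 5284 and 5986 CPM in KO 1, KO 2, KO 4 and KO 5, against 4367, 4851, 3968 and 6061 CPM in WT 1, WT 2, WT 4 and WT 5. Each label held both high and low libraries, and the log2 fold change was 0.0025 with a 95% interval from -0.37 to 0.37 (edgeR adjusted p = 0.996). Its near-identical neighbour Hspa1a, which the naming rule did not pick, was highest and lowest in the same libraries, from 1859 CPM in KO 2 to 2964 CPM in KO 5 and from 1893 CPM in WT 4 to 2862 CPM in WT 5. Hspa1l, a related gene known from testis that starts 547 bases beyond Hspa1a, was also highest in KO 5 (478 CPM) and in WT 5 (437 CPM). Reads of these 3 genes may have been shared or lost in counting, so their separate levels are uncertain.

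The Hsp110 group, which exchanges the nucleotide of Hsp70, comprises Hsph1, Hspa4 and Hspa4l. Hsph1 was at 1644, 1922, 2277 and 2262 CPM in KO 1, KO 2, KO 4 and KO 5, against 1294, 1863, 1648 and 2280 CPM in WT 1, WT 2, WT 4 and WT 5 (0.19 ± 0.17, edgeR adjusted p = 0.552). Its labels overlapped, and the largest gap lay between WT 5 and WT 1. Hspa4l averaged 72.9 ± 6.89 CPM under KO and 82.3 ± 6.60 CPM under WT (-0.17 ± 0.078, adjusted p = 0.216).

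All 3 Hsp90 genes were abundant and 0 were called, at an unadjusted p below 0.05 as well. Hsp90ab1, the constitutive cytosolic form and the member of highest level per length at 1765 CPM per kb, averaged 4537 ± 246 CPM under KO and 4314 ± 249 CPM under WT (SD, n = 4 each; 95% interval of the log2 fold change -0.062 to 0.21). Hsp90aa1, the inducible cytosolic form, averaged 1712 ± 229 CPM under KO and 1672 ± 193 CPM under WT (0.034 ± 0.11). Hsp90b1, the form of the endoplasmic reticulum that folds Toll-like receptors and integrins, averaged 868 ± 77.5 CPM under KO and 826 ± 65.3 CPM under WT (0.071 ± 0.077).

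Hspd1 and Hspe1 encode Hsp60 and Hsp10 of the mitochondrial matrix and are transcribed away from a shared start region on chromosome 1, where the annotated genes overlap by 96 bases. Hspd1 was at 328, 386, 470 and 469 CPM in KO 1, KO 2, KO 4 and KO 5, against 332, 387, 383 and 458 CPM in WT 1, WT 2, WT 4 and WT 5. Hspe1 was at 108, 114, 140 and 134 CPM in KO 1, KO 2, KO 4 and KO 5, against 106, 122, 117 and 136 CPM in WT 1, WT 2, WT 4 and WT 5. Both were lowest in KO 1 and WT 1 and highest in KO 4 and WT 5, and 0 of the 2 were called (0.085 ± 0.13 and 0.044 ± 0.099). Hspb6 (2.62 ± 0.336 CPM under KO and 2.48 ± 0.363 CPM under WT) did not pass either, nor did the symbols that share only its letters, Hspbp1 (0.17 ± 0.083), Hspb11 (0.045 ± 0.14) and Hspbap1 (-0.048 ± 0.11).

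The 7 Cct genes, subunits of the cytosolic chaperonin ring, varied little between libraries, with a median within-label coefficient of variation of 3.18%, beside 7.57% over all genes. Their summed level was 1597, 1672, 1610 and 1691 CPM in KO 1, KO 2, KO 4 and KO 5, against 1572, 1622, 1673 and 1648 CPM in WT 1, WT 2, WT 4 and WT 5. The sums overlapped between the labels, 0 of 7 genes passed even at an unadjusted p below 0.05, and the log2 fold changes ran from -0.014 for Cct5 to 0.034 for Cct6a. For Cct2, the highest at 183 CPM per kb, the 95% interval of the log2 fold change was -0.059 to 0.12. The lowest per length was Cct3 at 56.1 CPM per kb. The eighth subunit of the ring, encoded by Tcp1, carries another symbol and averaged 304 ± 7.91 CPM under KO and 275 ± 11.4 CPM under WT (0.14 ± 0.042, edgeR adjusted p = 0.0618). Every library labelled KO had more Tcp1 than every library labelled WT, but the difference did not pass.

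**Figure D3:**
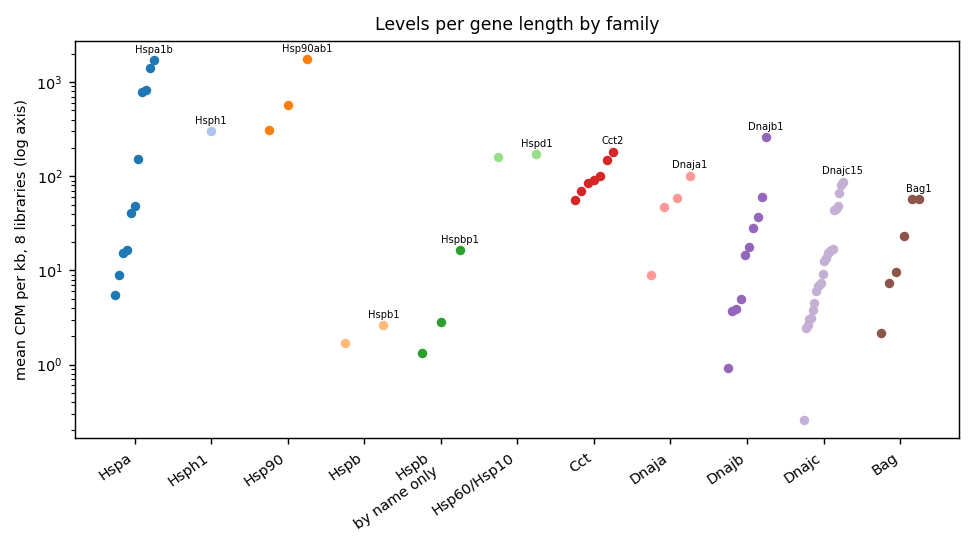
Mean level per gene length of the 73 chaperone genes over all 8 libraries, in CPM per kb on a log axis, by family, with the highest gene of each named. Levels span from 0.257 CPM per kb for Dnajc6 to 1765 CPM per kb for Hsp90ab1.

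The J-domain genes, which pick the clients of Hsp70, gave 1 call among 38 genes, Dnajb4. Of the 4 Dnaja genes 0 were called, at an unadjusted p below 0.05 as well; Dnaja1 was at 605 ± 77.0 CPM under KO and 573 ± 88.1 CPM under WT, Dnaja2 at 169 ± 5.87 and 167 ± 4.66 CPM, and Dnaja4 at 148 ± 12.8 and 141 ± 34.8 CPM under KO and WT (SD, n = 4 each). Dnaja4 was highest in WT 5, at 190 CPM, and lowest in WT 1, at 109 CPM. Of the 10 Dnajb genes, 1 was called higher and 0 lower, and the family median log2 fold change was 0.12. Dnajb1, the main heat-inducible J protein, was at 617, 584, 801 and 673 CPM in KO 1, KO 2, KO 4 and KO 5, against 529, 674, 526 and 781 CPM in WT 1, WT 2, WT 4 and WT 5 (0.092 ± 0.14, edgeR adjusted p = 0.775). The labels overlapped over nearly their whole range.

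Among the 24 Dnajc genes 0 were called, with a median log2 fold change of -0.0034; at an unadjusted p below 0.05, edgeR picked 1 higher and 2 lower. The higher was Dnajc15, a J protein of the mitochondrial inner membrane that restrains respiration, at 62.0 ± 5.61 CPM under KO and 51.8 ± 6.79 CPM under WT (0.26 ± 0.099, edgeR adjusted p = 0.148). The lower were Dnajc14 and Dnajc4, with Dnajc4 at 9.57 ± 0.83 CPM under KO and 11.5 ± 0.844 CPM under WT (-0.26 ± 0.090, adjusted p = 0.109). Per length, Dnajc15 and the splicing-associated Dnajc8 were the highest of the family, at 87.8 and 79.8 CPM per kb. Dnajc8 averaged 113 ± 3.51 CPM under KO and 109 ± 4.54 CPM under WT (0.041 ± 0.043).

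In the Bag family, some of whose members release nucleotide from Hsp70, Bag3 was the only call of 6. Bag1 was at 76.1 to 80.2 CPM under KO and 75.4 to 79.5 CPM under WT, and Bag6, which guards membrane proteins before their insertion, was at 242 to 257 CPM under KO and 242 to 257 CPM under WT. Their 95% intervals of the log2 fold change were -0.050 to 0.12 for Bag1 and -0.088 to 0.077 for Bag6. Bag2, an inhibitor of the ubiquitin ligase CHIP, was low at 4.2 ± 0.514 CPM under KO and 3.75 ± 0.238 CPM under WT (0.17 ± 0.13).

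Grouped by compartment, 0 of 10 listed members of the endoplasmic reticulum and 0 of 8 listed mitochondrial members were called. The list of the endoplasmic reticulum does not hold Dnajc14, described above, which was lower under KO without overlap (-0.12). The summed level of the members of the endoplasmic reticulum was 3640, 3686, 4308 and 3548 CPM in KO 1, KO 2, KO 4 and KO 5, against 3257, 3619, 3554 and 3491 CPM in WT 1, WT 2, WT 4 and WT 5. KO 4 was the highest of its label for 7 of these 10 genes, where over all genes it was the highest for 34.5%. Dnajb9, a J protein that the unfolded protein response induces, was at 117, 123, 151 and 102 CPM in KO 1, KO 2, KO 4 and KO 5, against 92.1, 115, 95.6 and 95.1 CPM in WT 1, WT 2, WT 4 and WT 5 (0.31 ± 0.11, edgeR adjusted p = 0.133). KO 4 is also the library with the highest myeloid sum, and the part of that in these values was not tested.

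Libraries of the same label differed by unequal amounts among the 15 members listed as heat-inducible. The within-label coefficient of variation (SD over mean, pooled over the labels) had a median of 11.5% over the 15, beside 7.57% over all genes. It was 20.0% for Hspa1a, 19.9% for Hspa1b, 19.6% for Hsph1 and 17.2% for Dnajb1, but 3.94% for Hspa4, 5.58% for Hspa8, 5.60% for Hsp90ab1 and 6.45% for Dnajb4. For the 7 Cct genes it was 2.13% to 5.09%. Summed over the 15 members listed as heat-inducible, the level was 19820, 20139, 24203 and 24754 CPM in KO 1, KO 2, KO 4 and KO 5, against 19037, 21801, 19961 and 24570 CPM in WT 1, WT 2, WT 4 and WT 5. KO 4, KO 5 and WT 5 were high, and KO 1, KO 2, WT 1 and WT 4 were low. In both labels the library of host number 1 had the lowest sum and that of host number 5 the highest. The part of the host in these values was not tested. WT 5 was the highest of its label for 12 of the 15 genes (80.0%), where over all genes it was the highest for 26.2%. KO 1 was the lowest of its label for 10 of the 15 (66.7%, against 21.3% over all genes), and WT 1 likewise for 10 of the 15 (66.7%, against 24.5%).

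Within the list, 2 of 15 were called higher and 0 lower, beside 6.20% and 3.84% of all genes. The median log2 fold change was 0.073, beside -0.0026 over all genes. The 2 that were called were Bag3 and Dnajb4, the only called members, and of the remaining 13 genes 0 were called. The list was chosen with earlier results of these data known, so the count is no measure of an excess. Bag3 ranked the libraries labelled WT as Hspa1b did, from WT 4 through WT 1 and WT 2 up to WT 5. Within the label KO, Bag3 and Hspa1b were both lowest in KO 2. Bag3 was highest in KO 1, the lowest library of its label for 10 of the 15 genes, and Hspa1b in KO 5. Dnajb4 was lowest in KO 1 and WT 1 and highest in KO 4 and WT 2. The high libraries KO 4 and KO 5 carry library code 8 in the sample descriptions, and the other 6 carry code 7. Within the label KO the code therefore cannot be told apart from these libraries. KO 4 and KO 5 also had the highest myeloid sums, 1004 and 731 CPM, and the sum of WT 5 was 79.0 CPM. The part of myeloid cells in the heat-inducible values was not tested. Within code 7, KO 1 and KO 2 against the 4 libraries labelled WT, the log2 fold change was -0.26 for Hspa1b (adjusted p = 0.387) and -0.13 for Hspd1 (adjusted p = 0.630). Bag3 and Dnajb4 were called there as well.

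**Figure D4:**
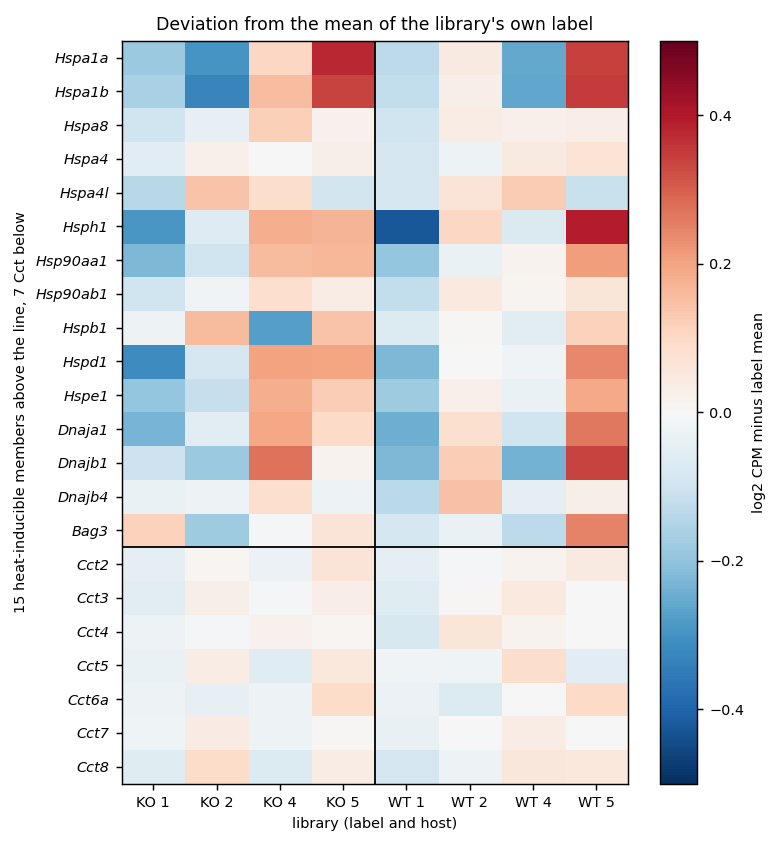
Log2 CPM of the 15 heat-inducible chaperone genes (above the line) and the 7 Cct genes (below it) in each library, minus the mean of the 4 libraries of its own label. For most genes of the upper block, WT 5, KO 4 and KO 5 are above and KO 1 and WT 1 below their label mean, with Hspa4l and Hspb1 among the exceptions, and the 7 Cct genes stay close to it in all 8 libraries.

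Genes that work with these chaperones gave few calls, where of all genes 6.20% were called higher and 3.84% lower. The regulators Hsf1 (64.0 ± 2.34 CPM under KO and 62.1 ± 2.64 CPM under WT), Hsf2 (0.075 ± 0.060) and the HSF1-binding Hsbp1 (-0.21 ± 0.080) did not pass, 0 of 3. Of 20 genes listed as co-chaperones of Hsp90, among them Trap1, itself a mitochondrial Hsp90, 0 were called. At an unadjusted p below 0.05 edgeR picked 0 of the 20, and the smallest p-values belonged to Ttc4 (-0.13), Fkbp5 (-0.20) and Ahsa2 (0.16). A list of 9 genes held Tcp1 of the Cct ring, prefoldin subunits and the phosducin-like Pdcl and Pdcl3. Of these 9, 0 were called, with 1 higher (Tcp1) and 1 lower (Pfdn5, -0.14) at an unadjusted p below 0.05. Of 11 further helpers of Hsp70, 1 was called lower and 0 higher: Grpel2, a nucleotide exchange factor of mitochondrial Hsp70, at 16.9 ± 0.402 CPM under KO and 19.5 ± 0.684 CPM under WT (-0.20 ± 0.053, edgeR adjusted p = 0.0392). Its call ended in every one of the 8 fits that left out 1 library (-0.23 to -0.18, highest adjusted p = 0.106). Sec63 (0.10), Sil1 (0.21) and Grpel1 (0.12) of the same list did not pass.

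Immediate early genes, which tissue handling and cell activation both induce, were read beside the heat-inducible members. Of 14 such genes, 2 were called higher and 1 lower, beside 6.20% and 3.84% of all genes. Their summed levels were 9744, 8666, 10613 and 9264 CPM in KO 1, KO 2, KO 4 and KO 5, against 9518, 9181, 7335 and 8689 CPM in WT 1, WT 2, WT 4 and WT 5. KO 4 was the highest of its label for 11 of these 14 genes (78.6%) and for 8 of the 15 heat-inducible genes (53.3%), against 34.5% over all genes. WT 1 had the highest immediate early sum of its label and the lowest heat-inducible sum. Atf3 (1.59 ± 0.28, edgeR adjusted p = 0.00530) and Ier3 (1.21 ± 0.26, adjusted p = 0.0169) were higher, and Egr2 (-0.43 ± 0.11, adjusted p = 0.0333) was lower. In KO 1, KO 2, KO 4 and KO 5, Atf3 was at 33.9, 47.0, 75.9 and 53.2 CPM and Ier3 at 24.9, 26.6, 53.7 and 36.9 CPM. Both ranked these libraries as the myeloid sums did, whereas Egr2 was lowest of that label in KO 4, at 45.6 CPM. The part of myeloid cells in these values was not tested. Without WT 4 the call of Ier3 ended (1.16, adjusted p = 0.0548), as it did once library code entered the model (0.74, adjusted p = 0.0985), and that of Egr2 ended in 6 of the 8 fits without 1 library, with an adjusted p of at most 0.0963. Zfp36 (0.36) did not pass.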

How the data were processed

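The deposited table holds raw counts per gene for 8 libraries, with Entrez identifiers, symbols and gene lengths in bases as the authors deposited them. Per the submitters' processing notes, alignment used STAR and mm10. How genes were counted (tool, annotation, strand) is not given in the sources used here. Overlapping and antisense genes therefore cannot be told apart. Per the labels' protocols, poly(A) RNA went into stranded TruSeq libraries read as single reads. Every gene of the table had at least 0.987 CPM in 4 libraries, and the table holds no gene of lower level. All columns of sample values were used.

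Counts were scaled with edgeR's TMM factors and tested with glmQLFit and glmQLFTest on the label alone, over all 11354 genes (filterByExpr kept all). Genes were called at an adjusted p (Benjamini-Hochberg) below 0.05. The SE comes from the log2 fold change and the F statistic, and the 95% interval uses the t quantile of the fit's degrees of freedom. The steps were tested on simulated data. Replicate pairs within a label differed by more than sampling noise. By the check given below, made over all genes, the host number was not taken as a pairing. Such a check cannot exclude a pairing for a smaller set of genes, such as the heat-inducible members. Positions come from RefSeq GRCm38.p6, where all 73 members matched by Entrez identifier, the assembly that mm10 names.

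The genes named are the called members, in families of at least 3 the 2 with the highest CPM per kb and the 2 with the smallest p, all members of smaller families, the called genes of each list with at most 3 more of smallest p, and Nlrp6. Hspa1a, Hspa1l, Hspa4, Cct3, Dnajc6, Dnajb2, Dnajb13 and Rgs10 were named after their values were seen. Members and lists were chosen with earlier results of these data known. Alternatives were RLE factors, total library size, no filter, 1 CPM in 4 libraries, DESeq2, limma-voom, the host block, the library code, code 7 alone, each library left out, and KO 2 and KO 4 left out together. The last was planned as leaving out the libraries richest in myeloid transcripts, which by the list used here are KO 4 and KO 5; the code 7 fit leaves out that pair. Versions were DESeq2 1.42.0, edgeR 4.0.16 and limma 3.58.1 under R 4.3.3, with pandas 2.3.3, numpy 2.4.6, scipy 1.17.1 and matplotlib 3.10.9 under Python 3.11.15.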

Additional observations from a re-analysis of the deposited data

Results flagged for a closer look

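In groups of 4 libraries, a library was marked where its gap to the nearest other library exceeded Dixon's 95% critical share of the group's range, which chance gives for about 1 in 20 groups; 66 groups of named genes were looked at and 5 were marked. Dnajb4 was at 93.0 CPM in KO 4 and at 85.7 to 86.2 CPM in the other libraries labelled KO. Cct6a was at 164 CPM in KO 5, with 150 to 152 CPM in the others of that label. Dnajb9 was at 115 CPM in WT 2, with 92.1 to 95.6 CPM in the others of that label. Hspa8 was at 4065 CPM in WT 1, with 4435 to 4466 CPM in the others. Dnajc8 was at 103 CPM in WT 5, with 111 to 112 CPM in the others.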

How the results depend on the processing

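Spread between the 4 libraries of a label limited the precision of many heat-inducible members and of Dnajc6, which had 36, 21, 38 and 103 counts in KO 1, KO 2, KO 4 and KO 5, against 58 to 68 counts in libraries labelled WT. The count of called members stayed at 2 or 3 in 16 of 18 alternatives and became 1, Bag3 alone, with the library code as a term and without KO 2 and KO 4, where Dnajb4 missed (0.30 and 0.29); higher calls likewise became 1. With total library size 1 member was called lower, Dnajc14. Leaving out 1 library gave 2 to 3 called members, all higher. Over all genes, the 1140 calls became 745 with the library code as a term, and the 436 lower calls became 249 there; leaving out 1 library gave 804 to 1197 calls, 516 to 709 higher and 276 (without KO 1) to 509 lower. The same-numbered hosts deviated from their label means with correlations of -0.060, 0.18, -0.14 and 0.26 for hosts 1, 2, 4 and 5, so the number was not taken as a pairing; with the host as a replicate block 3 members were called, Dnajc15 (0.26, adjusted p = 0.0367) in addition. Of the 32 members named by rule, the only ones recomputed under the alternatives one by one, several changed sign without passing. These were, with the library code as a term, Hspa1b (-0.26), Hspa8 (-0.013), Hsp90aa1 (-0.14), Hspbap1 (0.0835), Hspd1 (-0.13), Hspe1 (-0.12), Cct6a (-0.00128), Dnaja1 (-0.0727), Dnaja4 (-0.018), Dnajb1 (-0.0626), Bag6 (0.021); with code 7 alone, Hspa1b (-0.26), Hspa8 (-0.0131), Hsp90aa1 (-0.14), Hspbap1 (0.0835), Hspd1 (-0.13), Hspe1 (-0.12), Cct6a (-0.00144), Dnaja1 (-0.0728), Dnaja4 (-0.0181), Dnajb1 (-0.0628), Bag6 (0.0208); with total library size, Hspa1b (-0.0146), Dnaja2 (-0.00207); with limma-voom, Hspa1b (-0.00271); with the replicate block, Hspa1b (-0.00296); and without KO 2 and KO 4, Hsp90b1 (-0.0309), Hspb11 (-0.12), Dnaja2 (-0.0337), Dnajc8 (-0.00573), Bag6 (0.00435). Over the fits that left out 1 library, signs changed for Hspa1b (-0.12 to 0.13), Hsp90aa1 (-0.031 to 0.11), Hspb6 (-0.0018 to 0.16), Hspb11 (-0.0748 to 0.11), Hspbap1 (-0.13 to 0.0166), Hspe1 (-0.0205 to 0.11), Cct5 (-0.0321 to 0.0107), Dnaja1 (-0.00275 to 0.17), Dnaja2 (-0.00336 to 0.034), Dnaja4 (-0.043 to 0.24), Dnajb1 (-0.00779 to 0.21), Bag6 (-0.025 to 0.00545). The cause of these changes was not tested.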
